A study of Drosophila melanogaster with 87 samples.

Results

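RNA sequencing of dissected brains from heat-shocked flies with ubiquitous knockdown of the nuclear m6A reader Ythdc1 was compared with the control brains matched to it. The experiment holds 3 Ythdc1 RNAi libraries and 3 control RNAi libraries after heat shock (HS), the latter numbered 7 to 9, so 6 of the 87 libraries of the series. The control carried an mCherry RNAi line and the knockdown a Ythdc RNAi line, both driven by DaGal4, which expresses GAL4 in nearly all tissues from early development. Flies were Drosophila melanogaster males reared at 25 °C and labelled as collected 1 to 2 days after eclosion. HS was 30 min at 38.5 °C, with tissue taken immediately. The paper describes the flies of its HS experiments as aged further after collection, so the labelled age need not be the age at dissection. The same 2 genotypes without HS (3 libraries each, called basal) and Mettl3 RNAi brains after HS with their own controls (6 libraries each) serve here as comparisons and share no library with the 6. Each genotype is 1 RNAi line, so the loss of Ythdc1 and any other difference of that line from the control line cannot be told apart. The driver is active before the adult stage and in tissues other than the brain.

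N6-methyladenosine (m6A) is a mark on adenosines of messenger RNA, placed by a writer complex around Mettl3 and Mettl14 and bound by proteins with a YTH domain. Drosophila has a pair of such readers, cytoplasmic Ythdf and nuclear Ythdc1, and Ythdc1 is known for its part in alternative splicing of Sex lethal and other transcripts. HS activates the transcription factor Hsf, which binds heat shock elements in front of chaperone genes such as the Hsp70 copies and raises their transcription many times over. The counts used here are per gene and carry no information on splicing, m6A or protein.

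The 6 HS libraries held 33931604 to 65901563 counts assigned to genes, and the 6 basal libraries 37671796 to 47928446. Levels are given as CPM, the count of a gene relative to the library's total after TMM scaling over the 12 libraries of the Ythdc1 experiment, and n = 3 libraries per group throughout unless stated. Whether the libraries of a group came from separate crosses is not given in the labels. The paper states for its experiments in general that replicate animals came from crosses with different parents. The p-values measure the spread between the libraries of a group. In these bulk samples fewer cells of a type and less RNA per cell cannot be told apart. Neuronal markers were high in all libraries (nSyb, a synaptic vesicle protein, was at 1726 to 2050 CPM after HS), and none of 12 neuronal and 9 glial markers was called between genotypes after HS. Mitochondrial transcripts took 17.4 to 18.6% of counts in the HS controls and 19.9 to 20.9% in Ythdc1 RNAi HS brains. Control basal replicate 8 stood apart from its group, with 24.7% of counts on mitochondrial transcripts against 17.5% and 17.8% in replicates 7 and 9, so the main basal results are also given without it.

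Ythdc1 (FBgn0027616, chromosome 3L, 3370451 to 3374170, minus strand, Release 6 coordinates) was at 211, 205 and 192 CPM in the control HS brains and at 20.1, 22.7 and 23.1 CPM in the Ythdc1 RNAi HS brains. The groups lay far apart, and the control mean was 9.22 times that of the knockdown. On the log2 scale the difference was -3.23 (SE 0.06, adjusted p = 1.46e-06, quasi-likelihood F test of edgeR, p adjusted by Benjamini-Hochberg over all genes). The exact permutation test of the CPM values gave p = 0.1, the smallest that 3 against 3 libraries allow. Without HS the control brains were at 178, 109 and 164 CPM and the knockdown brains at 33.3, 33.1 and 32.8 CPM (log2 difference -2.21, adjusted p = 0.00718). The knockdown in HS brains therefore left Ythdc1 RNA detectable in all 3 libraries, at 672 to 795 counts each.

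**Figure D1:**
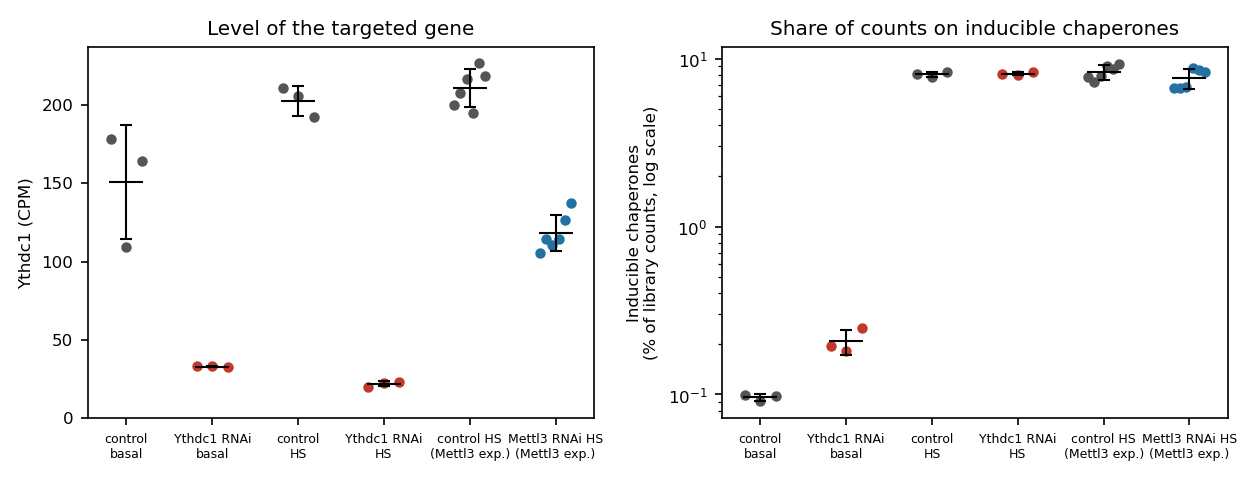
Left, Ythdc1 level in CPM on a linear axis; right, percent of each library's counts on the inducible chaperone list on a log axis. Points are libraries, bars the group mean ± SD, and CPM of the Mettl3 experiment was scaled separately. Ythdc1 RNAi libraries sit between 20.1 and 33.3 CPM with and without HS, while the chaperone share after HS is near 8% in both genotypes of the Ythdc1 experiment.

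After HS, 543 of 10245 genes tested (5.3%) differed between Ythdc1 RNAi and control brains at an adjusted p under 0.05, which is the rule for every gene called here. Of these, 251 were higher (2.45%) and 292 lower (2.85%) in the knockdown, with median log2 fold changes of 0.35 and -0.43. Most changes were small: 38 genes rose and 67 fell by more than 2-fold, and 9 rose and 26 fell by more than 4-fold. The CPM ranges of the groups did not overlap for any of the 543, and the same held for 16% (higher) and 13.5% (lower) of all genes tested. The number of calls rested heavily on having all 6 libraries. It fell to 94 without Ythdc1 RNAi replicate 2, to 117 without control replicate 8, to 143 and 201 without Ythdc1 RNAi replicates 1 and 3, and to 348 and 375 without control replicates 9 and 7. Of the 58 genes called and named by the rule for this comparison, 9 were called in each of 14 alternative analyses: Ythdc1, cad, Itgbn, CR31054, CG11626, ALiX, CG30424, CG11313 and GstE1. Each of the others lost its call in at least 1 of them. With control HS replicates 1 to 9, which adds the 6 control brains of the Mettl3 experiment, 71 genes were called, 64 of them among the 543, and 10 of the 58 named genes kept their call. No term for the experiment was fitted there, so that alternative mixes experiment with genotype. Mitochondrial transcripts took 10.5 to 12.1% of counts in the added controls and 17.4 to 18.6% in replicates 7 to 9.

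**Figure D2:**
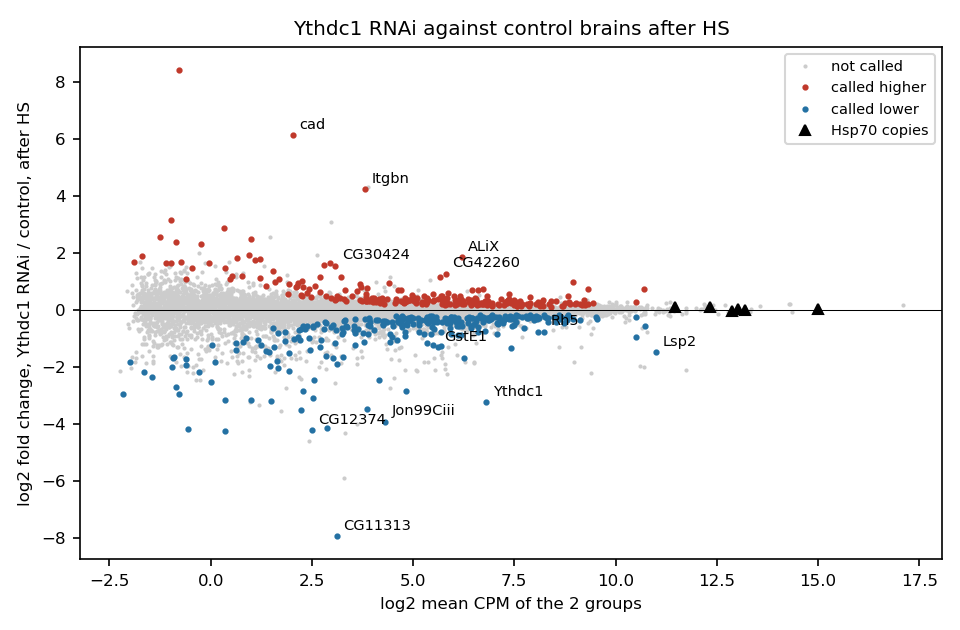
Each point is a gene: the x axis is the log2 of the mean CPM of the 2 groups, and the y axis the log2 fold change of Ythdc1 RNAi over control after HS. Red and blue points are the 251 genes called higher and the 292 called lower, and triangles are the 6 Hsp70 copies, which lie between -0.02 and 0.12 at the right of the plot.

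The largest rises named were in genes nearly silent in control brains. cad, the homeodomain factor caudal, had 8, 2 and 3 counts in the control HS libraries and 295, 215 and 294 in the knockdown (0.246, 0.034 and 0.096 CPM against 7.46, 7.28 and 9.48 CPM). Its log2 fold change was 6.14 (SE 0.40, adjusted p = 0.000921), and it was also higher without HS (6.57, adjusted p = 0.0218). Itgbn, the integrin beta-nu subunit, was at 0.615, 1.31 and 2.24 CPM in controls and at 27.3, 25.6 and 27.1 CPM in Ythdc1 RNAi brains. Every knockdown library was above every control by a wide margin (log2 4.25, SE 0.34, adjusted p = 0.00214), as in basal brains (4.95, adjusted p = 0.00718). Exons of Itgbn overlap those of CG9265 in the annotation, and whether the counting used strand is not given in the sources used here.

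cad and Itgbn lie on chromosome 2L, from 20770731 to 20783135 and from 21053033 to 21058044. The stretch of 287 kb that spans both holds 19 tested genes, of which 3 were called higher and 0 lower. The third was the small nucleolar RNA gene snoRNA:Me28S-C2789, named after its values were seen, with 0 counts in each control HS library and 48, 29 and 40 in the knockdown. Against a floor of 3 counts over the control group it was at least 47.5-fold higher. The other 16 genes of the stretch had log2 fold changes from -0.65 (CG9270) to 0.26 (CG31676).

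Among the other large rises, ALiX, an ESCRT-associated protein of endosomal sorting, was the most highly expressed. It was at 35.4, 31.6 and 27.8 CPM in control and 114, 119 and 114 CPM in Ythdc1 RNAi HS brains, with no overlap (log2 1.86, SE 0.07, adjusted p = 0.000129). CG42260 went from 36.1, 34.9 and 26.2 CPM to 78.1, 79.5 and 83.4 CPM (1.29, SE 0.11, adjusted p = 0.00228). Its mean in the 6 control HS brains of the Mettl3 experiment, scaled separately, was 84.0 CPM, as high as in the knockdown, and with control HS replicates 1 to 9 its value was 0.10 and no longer called (adjusted p = 0.886). CG30424 went from 3.96, 4.27 and 4.45 CPM to 13, 11.9 and 13.2 CPM (1.57, SE 0.09, adjusted p = 0.000603). All 3 were higher in basal brains too, by 1.69, 1.39 and 1.83 on the log2 scale. The remaining rises named for their size were CR31054 (2.49), CG11626 (1.93), CG11852 (1.80), CG12105 (1.75), hll (1.67), asRNA:CR45144 (1.59) and the cuticle protein gene Cpr47Ef (1.40), all below 14 CPM. hll, asRNA:CR45144 and CG11852 had basal values of the other sign (-0.73, -0.83 and -1.58), none of them called.

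The largest fall was that of CG11313, which had 472, 1196 and 524 counts in the control HS libraries and 3, 1 and 3 in the knockdown. In CPM it was at 14.5, 20.6 and 16.8 against 0.0759, 0.0338 and 0.0967, so it was close to absent in all 3 knockdown libraries (log2 -7.91, SE 0.27, adjusted p = 6.14e-05). The same near absence was seen in basal brains (20.0, 21.1 and 13.4 CPM against 0.431, 0.0396 and 0.0997, log2 -6.61, adjusted p = 0.00934). Obp99a, an odorant-binding protein, was at 9.68, 7.59 and 13.5 CPM in controls and 1.72, 1.22 and 0.645 in the knockdown after HS (-3.09, SE 0.36, adjusted p = 0.00834), and was lower in basal brains as well (-3.66, adjusted p = 0.0117). Lcp1, a larval cuticle protein, had a log2 fold change of -3.49 after HS (adjusted p = 0.00732) and -4.33 in basal brains (adjusted p = 0.0559).

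Many of the other large falls were in genes of digestive enzymes. Jon99Ciii, a secreted serine protease of the midgut, was at 28.2, 43.5 and 39.7 CPM in control and 3.54, 2.13 and 1.77 CPM in Ythdc1 RNAi HS brains (log2 -3.90, SE 0.29, adjusted p = 0.00145). Jon99Cii (-3.46), Jon99Ci (-3.19), deltaTry (-3.14) and epsilonTry (-3.15) moved with it. Of 14 midgut markers tested 7 were lower and 0 higher (2.85% and 2.45% of all genes tested), with a median log2 fold change of -2.27 beside 0.00 over all genes. The 7 became 3 without Ythdc1 RNAi replicate 2 or control replicate 8, 0 in a fit of all 12 libraries and 0 with control HS replicates 1 to 9, where the median was -0.97. Their summed level was 974 to 1817 CPM in the HS controls and 235 to 787 CPM in the HS knockdown. In basal brains the sums were 110 to 263 CPM in controls and 121, 940 and 84.6 CPM in the knockdown replicates 1 to 3, with a median of 4.05 and no marker called. The level of midgut transcripts thus varied between libraries of 1 genotype and treatment, and its part in the falls of CG12374 (-4.20), CG33346 (-4.14), Obp19a (-4.23) and CG18180 (-2.84) was not tested. CG12374 and Obp19a had basal values of the opposite sign (4.15 and 4.16, adjusted p = 0.161 and 0.178).

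Markers of fat body and hemocytes were also lower in places, where 2.85% of all genes tested were called lower. Lsp2, a storage protein of the fat body whose exons overlap asRNA:CR11538 over 84.6% of their length, was at 2571, 3090 and 3364 CPM in control and 1224, 1191 and 899 CPM in Ythdc1 RNAi HS brains, without overlap (log2 -1.47, SE 0.16, adjusted p = 0.0063), and was lower in basal brains (-1.53, adjusted p = 0.0247). It was the only called gene of 9 fat body markers, whose summed level was 5701 to 6931 CPM in control and 2895 to 4003 CPM in knockdown HS brains. The hemocyte genes Hml, a clotting factor, and Ppn, an extracellular matrix protein, fell by 0.63 and 0.76 on the log2 scale (adjusted p = 0.0207 and 0.0174), 2 of 6 hemocyte markers, and neither was called without Ythdc1 RNAi replicate 1 or 2 or control replicate 8. The summed hemocyte level was 539 to 565 CPM in control and 435 to 496 CPM in knockdown HS brains. None of 15 muscle markers was called.

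**Figure D3:**
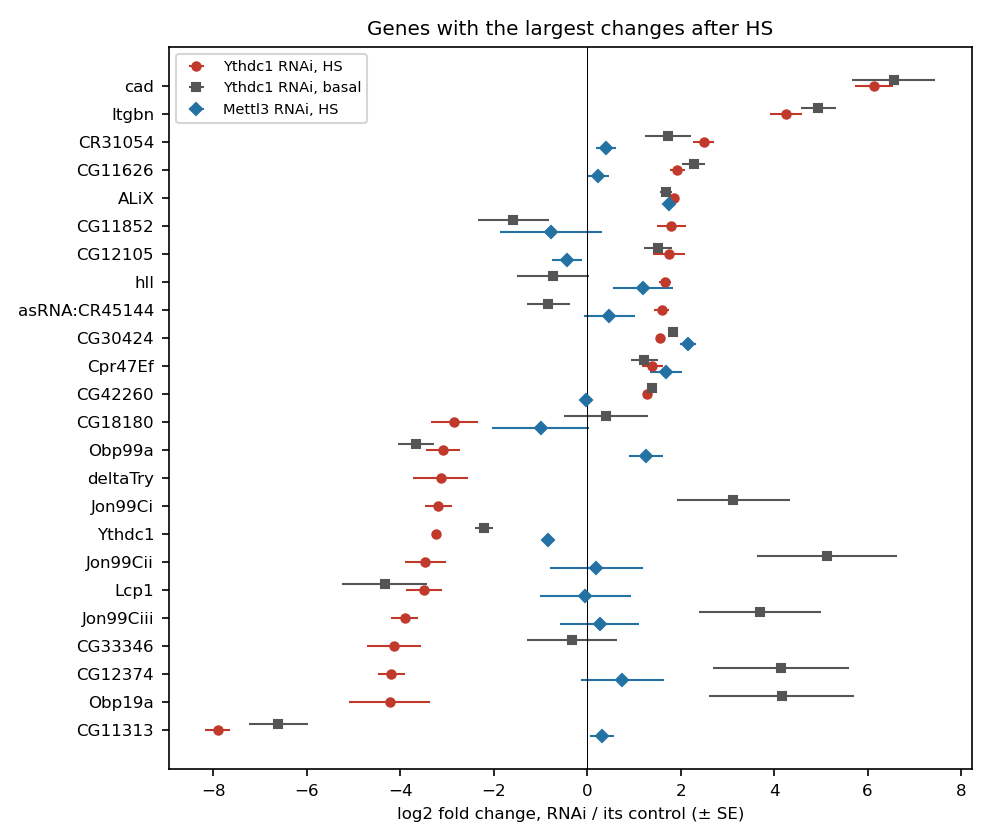
log2 fold change (± SE) of the 24 genes with the largest rises and falls after HS, for Ythdc1 RNAi after HS (circles), Ythdc1 RNAi without HS (squares) and Mettl3 RNAi after HS (diamonds), each against its own controls. A missing symbol is a gene that did not pass the count filter of that comparison. ALiX and CG30424 lie to the right in all 3, while the Jon99C proteases lie left after HS and right in basal brains.

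The inducible chaperones, the main targets of HS, were nearly level between the genotypes after HS. Of 18 genes listed, 17 were in the table and 16 were tested, and 1 was called. Hsp67Ba was at 94.5, 94.3 and 92.1 CPM in control and 113, 110 and 116 CPM in knockdown HS brains (log2 0.25, SE 0.04, adjusted p = 0.0166). Hsp67Ba lost its call in 7 of 14 alternatives, among them without any one of the Ythdc1 RNAi libraries. In the annotation 75.9% of its exonic length overlaps asRNA:CR43481, and reads of the pair cannot be told apart without strand. The list's median log2 fold change was 0.03. The chaperones took 8.13% ± 0.15 (SD, n = 3) of counts in Ythdc1 RNAi and 8.07% ± 0.27 in control HS brains (exact permutation test, two-sided p = 0.9). Counted without mitochondrial transcripts, the shares were 10.2% ± 0.25 and 9.85% ± 0.30. The Hsp70 copy with the highest level, Hsp70Aa, was at 32929.7, 31083.6 and 31836.5 CPM in control and 32841.1, 33036.6 and 34805.3 CPM in the knockdown, overlapping ranges (log2 0.05, SE 0.09, adjusted p = 0.786). The 6 Hsp70 copies ranged from -0.02 (Hsp70Bbb) to 0.12 (Hsp70Ab), none called. These copies are near-identical and reads can be split between them, so values of single copies are uncertain.

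In basal brains the same genes differed clearly. Of the 16 tested, 8 were higher in Ythdc1 RNAi (0.774% of all 10341 genes tested were called higher and 3.11% lower, 3.89% in all), 0 were lower, and the median was 1.01. Hsp70Aa was at 26.7, 28.97 and 25.01 CPM in control and 259, 219 and 413 CPM in knockdown basal brains (log2 3.45, SE 0.27, adjusted p = 0.00718). The other Hsp70 copies were higher by 1.22 (Hsp70Bb) to 3.84 (Hsp70Bbb) on the log2 scale, Hsp68 by 2.19 and Hsp83, the Hsp90 chaperone, by 0.65. The level in basal knockdown brains remained low: Hsp70 copies took 0.0651 to 0.111% of counts there, 0.0120 to 0.0168% in basal controls and 5.54 to 6.01% in the 6 HS libraries. Without control basal replicate 8 Hsp70Aa had 3.50, Hsp68 2.15 and Hsp83 0.63, all called. The count of 8 chaperones was again 8 without that library, and ranged from 4 (without control basal replicate 9) to 11 over 13 alternatives.

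The Ythdc1 RNAi effect on Hsp70, as a ratio to control, thus differed between the treatments, and that difference was tested directly on the log2 scale. Hsp70 levels were so much higher after HS that an excess in CPM of the basal size would barely change the ratio there. Whether such an excess was also present after HS was not tested. Of 10716 genes tested, 32 (0.299%) had an effect after HS that differed from the effect in basal brains, 14 with the HS effect higher and 18 with it lower. Among them were 5 of the 6 Hsp70 copies, with differences of -3.86 (Hsp70Bbb), -3.52 (Hsp70Ab), -3.39 (Hsp70Aa), -3.002 (Hsp70Bc) and -2.78 (Hsp70Ba) and adjusted p from 0.000522 to 0.0142. Hsp70Bb, the copy with the highest basal level, had -1.19 (adjusted p = 0.0776). Hsp68 (-2.25, adjusted p = 0.00397), Hsp83 (-0.62, adjusted p = 0.0319) and lncRNA:alphagamma-element:CR32865 (-3.56, adjusted p = 0.00263), a heat-inducible non-coding RNA of the Hsp70 region on 3R, behaved alike. The last was at 0.834, 1.16 and 0.855 CPM in control and 14.1, 6.59 and 15.9 CPM in knockdown basal brains, and between 1204 and 1535 CPM in all 6 HS libraries.

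The heat shock element is the sequence by which Hsf recognises these genes, and the stretches around the match closest to the gene's start are shown for members whose basal level was called higher, with 3 contiguous inverted units in capitals. The motif searched, on both strands, was GAANNTTCNNGAA or TTCNNGAANNTTC, from 250 bases before to 50 after each gene's start in the Release 6 genome.
Hsp70Aa: cgcgcctcGAATGTTCGCGAAaagagcgcc
Hsp70Ba: cgcgcctcGAATGTTCGCGAAaagagcgca
Hsp68: ctcgaaatTTCCTGAACTTTCagtcctttc
The stretches lie at chr3R:11956579-11956608, chr3R:12467830-12467859 and chr3R:24057461-24057490, each read on the gene's own strand (minus). Of all 16773 windows 73 held a match (0.435%), and 7 of the 17 chaperone windows did (41.2%): the 6 Hsp70 copies and Hsp68. These 7 and Hsp83, whose window held no match to these letters, were the 8 chaperones called higher in basal knockdown brains. The Hsp70 copies hold the same matched letters and are not independent matches, and a link between matches and calls was not tested. A match is a string of letters and not a measured binding site.

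**Figure D4:**
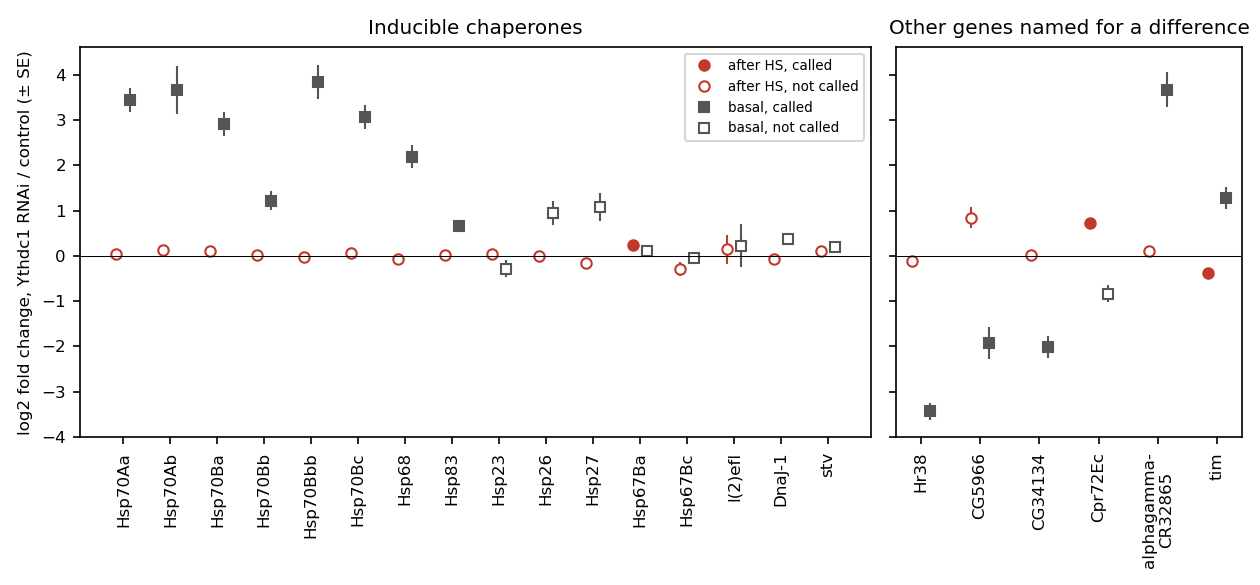
log2 fold change of Ythdc1 RNAi over control (± SE) after HS (red circles) and in basal brains (grey squares); filled symbols are called. Left, the 16 inducible chaperones tested; right, other genes of the text. After HS the chaperones lie near 0, and in basal brains the 6 Hsp70 copies, Hsp68 and Hsp83 lie above it.

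For Hr38, sr and CG34134 the genotypes differed in basal brains and were near each other after HS. Hr38, an orphan nuclear receptor induced by neuronal activity, was at 349, 222 and 279 CPM in control and 27.8, 27.7 and 24.4 CPM in knockdown basal brains. After HS it was at 440, 425 and 353 CPM in control and 378, 371 and 390 CPM in knockdown brains, overlapping ranges (difference of the effects 3.31, SE 0.21, adjusted p = 6.51e-05). Without control basal replicate 8 the differences of Hr38, CG34134, CG5966, Cpr72Ec, the element RNA and the 5 Hsp70 copies were again called. The activity-induced factor sr (stripe) also had a lower basal level in the knockdown (-1.26, adjusted p = 0.00718) and -0.12 after HS (difference 1.14, adjusted p = 0.0217), and -1.23 in basal brains without control basal replicate 8 (adjusted p = 0.00762). No other member of the list of 13 early response factors was called in either comparison. CG34134 had -2.01 in basal brains and 0.01 after HS (difference 2.02, adjusted p = 0.00782). CG5966 had -1.92 and 0.85 (difference 2.78, adjusted p = 0.0273). Cpr72Ec, a cuticle protein gene, rose after HS from 502, 441 and 475 CPM to 841, 852 and 698 CPM (0.73, adjusted p = 0.0098) and had -0.83 in basal brains (adjusted p = 0.062; difference 1.57, adjusted p = 0.00988).

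For tim, per and vri the knockdown had the higher level in basal brains. tim, the period partner timeless, was at 105, 103 and 105 CPM in control and 79.3, 84.6 and 82.1 CPM in knockdown HS brains (-0.37, SE 0.04, adjusted p = 0.0063). In basal brains it was at 84.1, 45.6 and 82.5 CPM in control and 194, 161 and 166 CPM in the knockdown (1.28, adjusted p = 0.0432), and the difference of the effects was -1.64 (adjusted p = 0.0259). per (1.39 in basal brains, -0.23 after HS) and vri (2.19 and -0.25), which act in the same feedback loop, had differences of -1.62 (adjusted p = 0.0217) and -2.44 (adjusted p = 0.00023). Without control basal replicate 8, the library in which tim was lowest, the basal values of tim, per and vri were 1.04, 1.16 and 2.10 and the differences -1.43, -1.42 and -2.38, all called. After HS 3 of 10 clock genes were lower and 0 higher, beside 2.85% and 2.45% of all genes tested. The 3 were tim, Pdf (-0.27), the neuropeptide of the clock neurons, and cry (-0.23), the blue light receptor. Pdf and cry had negative values in basal brains too (-0.69 and -0.50, not called). A single clock gene was called after HS without Ythdc1 RNAi replicate 1 or 2 or control replicate 8. tim, per and vri cycle over the day, and the hour at which each group was collected is not given in the sources used here, so hour and genotype cannot be told apart for them.

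Of 10 genes of the m6A machinery, 1 was higher and 1 lower after HS, where 2.45% of all genes tested were higher and 2.85% lower. fl(2)d, a subunit of the writer complex, was at 67.1, 67.6 and 65.3 CPM in control and 79.9, 88.1 and 85.4 CPM in the knockdown (0.32, SE 0.04, adjusted p = 0.0151). Over 14 alternatives its value ranged from 0.06 to 0.35, and its call was lost in 5. The lower gene was Ythdc1 itself. The other reader, Ythdf, had 0.14 (adjusted p = 0.187). Of 24 SR proteins and splicing regulators 2 were higher and 1 lower: tra2, a partner of transformer in splicing, at 12.5, 11.3 and 12.1 CPM against 16.1, 18 and 16.2 CPM (0.47, adjusted p = 0.0183), heph, the polypyrimidine tract-binding protein (0.23), and Doa, a kinase of SR proteins (-0.21). heph turned to -0.70 (adjusted p = 0.221) with control HS replicates 1 to 9, and the list had no call without Ythdc1 RNAi replicate 1 or 2 or control replicate 8. tra2 was also the only one called of 15 genes of sex determination and dosage compensation. The X chromosome had 2.66% of its 1619 tested genes called, beside 4.67 to 6.93% on the arms of chromosomes 2 and 3, and a median log2 fold change of 0.02.

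Genes with Mettl3-dependent m6A were described with a list from other libraries of the series, m6A immunoprecipitation of heads with the Synaptic Systems antibody. Labels of the basal Mettl3 RNAi immunoprecipitates give no antibody, while their titles name this one, and the titles were followed. The list was made from counts per gene and is not that of the paper, which was called from peaks with RADAR. The list holds 1293 genes whose enrichment over input was lower in Mettl3 RNAi than in control heads, in basal or HS flies, with 2 pools per group. Of these, 1275 were tested in the Ythdc1 HS brains, and 65 were higher (5.10%, beside 2.45% of all genes) and 45 lower (3.53%, beside 2.85%). The list's median log2 fold change was 0.03. Its genes were more highly expressed than the rest, with a median of 47.3 CPM beside 15.8 CPM over all genes tested, and the part of level in the counts was not tested. Members called higher included CG42260, fl(2)d and InR, the insulin receptor (0.42), and members called lower included CCHa2 and wg, the ligand wingless (-1.72). InR and wg were chosen after their values were seen.

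Of 35 genes of the Egfr and MAPK pathway 3 were higher and 1 lower after HS, beside 2.45% and 2.85% of all genes tested. All 4 were in that m6A list, as were 18 of the 35 (51.4%, beside 12.4% of all genes tested). None of the 35 was called without Ythdc1 RNAi replicate 1, 2 or 3 or with control HS replicates 1 to 9, and 1 was called without control replicate 8. kek1, a transmembrane inhibitor of Egfr, was at 64.5, 65.7 and 55.1 CPM in control and 80.2, 83.8 and 84.7 CPM in the knockdown (0.40, SE 0.06, adjusted p = 0.0198). drk, the Grb2 adaptor, had 0.30 (adjusted p = 0.0375) and rl, the MAP kinase ERK, 0.22 (adjusted p = 0.0333). Mkp3, a phosphatase that inactivates ERK, was at 91.6, 92.6 and 83.3 CPM in control and 74.0, 73.5 and 73.2 CPM in the knockdown (-0.30, SE 0.04, adjusted p = 0.0174). The CPM ranges did not overlap for any of the 4, as for all 543 genes called. The same held for 16% (higher) and 13.5% (lower) of all genes tested. The list's median was -0.02. The value of kek1 turned to -0.94 (adjusted p = 0.226) with control HS replicates 1 to 9.

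Detoxification genes moved in both directions, with 3 higher and 5 lower of 42 tested and a median of -0.14. Over all genes tested 2.45% were higher and 2.85% lower. GstE1, a glutathione S-transferase, was at 69.1, 63.7 and 75.5 CPM in control and 31.0, 28.1 and 27.0 CPM in knockdown HS brains (-1.30, SE 0.09, adjusted p = 0.00111). Cyp4p1, a cytochrome P450, was at 12.6, 15.2 and 15.4 CPM against 4.73, 4.91 and 4.64 CPM (-1.62, SE 0.11, adjusted p = 0.000921). GstE9 (-0.85), GstE3 (-0.60) and GstD8 (-1.68) were also lower, and Cyp6a9 (0.66), GstD9 (0.39) and Cyp6a13 (0.36) higher. In basal brains 10 of 42 were lower and 1 higher, beside 3.11% and 0.774% of all genes tested there. GstE1 was among the lower (-1.996, adjusted p = 0.00343) and GstD8 was the higher (1.96, adjusted p = 0.0463). Without control basal replicate 8 they had -1.90 and 1.96, both called. After HS the calls went to 1 higher and 2 lower without Ythdc1 RNAi replicate 2, to 0 higher and 4 lower without replicate 1, and to 0 higher and 1 lower with control HS replicates 1 to 9, where the list's median was 0.20.

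Of 31 neuropeptide genes 4 were lower and 1 higher, beside 2.85% and 2.45% of all genes tested. Ilp5, an insulin-like peptide, was at 32.9, 32.0 and 29.7 CPM in control and 22.6, 20.2 and 20.9 CPM in the knockdown (-0.59, SE 0.06, adjusted p = 0.0063). CCHa2 (-0.67), Capa (-0.37) and Pdf fell as well, and Proc, which encodes proctolin, rose (0.38). Without any one of the 6 libraries 1 or 2 of the lower calls were left, and with control HS replicates 1 to 9 none, with a median of 0.09. The synaptic release machinery had no call among 15 genes. TotX, a stress-induced Turandot peptide, was at 8.24, 6.28 and 8.99 CPM in control and 3.64, 3.22 and 2.26 CPM in the knockdown (-1.37, adjusted p = 0.0198), the only call among 9 genes of that list.

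Opsin genes of the eye split. Rh5 was at 409, 351 and 361 CPM in control and 217, 244 and 218 CPM in Ythdc1 RNAi HS brains (-0.75, SE 0.06, adjusted p = 0.00276), while Rh6 was at 569, 511 and 473 CPM against 638, 713 and 689 CPM (0.37, SE 0.06, adjusted p = 0.0233). Both are made in the photoreceptor R8, in different ommatidia. inaD, a scaffold of phototransduction, was lower (-0.30), so 1 of 14 retina markers was higher and 2 were lower, beside 2.45% and 2.85% of all genes tested. Rh6 was not called without any one of the Ythdc1 RNAi libraries or control replicate 8. The summed level of retina markers overlapped, at 49612 to 59976 CPM in control and 49852 to 56299 CPM in knockdown brains. Of 9 cuticle and tracheal genes 3 were higher, Cpr47Ef, Cpr72Ec and Cpr49Ae (0.51). The summed level of the 9 was 542 to 623 CPM in control and 853 to 1024 CPM in the knockdown, and Cpr72Ec alone made up most of it in each library. Of the 9, 6 had a positive log2 fold change, and the lowest was -1.66. A single one of the 9 was called without Ythdc1 RNAi replicate 1 or control replicate 8, and 0 with control HS replicates 1 to 9.

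Lists with no call after HS were the 13 cognate and organelle chaperones (Hsc70-4 had -0.04), the 11 genes of heat shock gene control, the 24 antimicrobial peptides, the 13 genes of the unfolded protein response, the 20 autophagy genes (ref(2)P, the p62 homolog, had -0.23 with adjusted p = 0.0753) and the 17 mitochondrial genome transcripts. The 8 subunits of the CCT chaperonin had 1 call, CCT1 (0.33, adjusted p = 0.0422), the 85 cytosolic ribosomal proteins 2, RpL24-like (0.26) and RpS14b (0.19), and the 33 proteasome subunits 1, Prosbeta2 (-0.22). Over all genes tested 2.45% were called higher and 2.85% lower. Of 14 alternatives, CCT1 lost its call in 9, and RpL24-like and RpS14b in 8 each. Prosbeta2 lost its call in 9 and changed sign in 1. A missing call does not show that levels were equal.

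**Figure D5:**
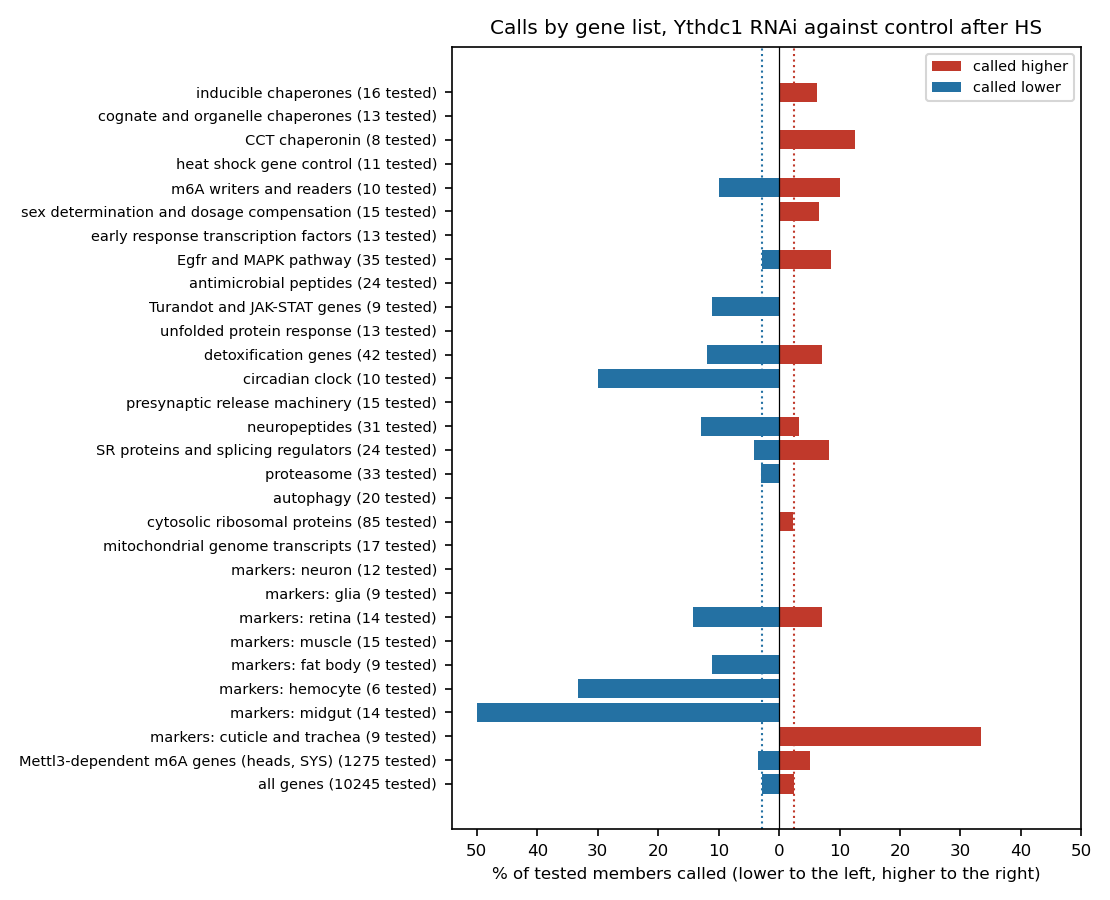
Percent of tested members of each list called lower (blue, left) and higher (red, right) in Ythdc1 RNAi HS brains, with the number tested in brackets. Dotted lines mark the share over all genes, 2.45% higher and 2.85% lower. Midgut markers reach 50% lower, and 11 of the lists drawn have no call; the testis list, with 2 genes tested and none called, is not drawn.

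Genes called after HS were set beside the calls in basal brains, made on other libraries of the same 2 lines. Of genes tested in both, 27 were higher in both, which is 10.8% of those higher after HS and 35.1% of those higher in basal brains, where 0.766% of all genes tested in both were called higher. Those lower in both were 64, 22.7% and 20.1%, beside 3.16% of all genes called lower in basal brains. These counts rested on control basal replicate 8: without it 119 genes were higher in both (47.8% of those higher after HS, 19.4% of those in basal brains) and 156 lower in both (54.5% and 16.5%), beside 6.08% and 9.36% of all genes. Whether called in basal brains or not, 198 of the 249 genes higher after HS had a positive basal value (79.5%, beside 49.01% of all genes) and 238 of the 282 lower a negative one (84.4%, beside 50.99%). Lower after HS and higher in basal brains were 2 genes, tim and GstD8.

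Mettl3 RNAi brains after HS, from separate libraries and controls, had 635 of 10054 genes called (6.32%), 362 higher (3.6%) and 273 lower (2.72%). Ythdc1 itself was among the lower (-0.84, adjusted p = 1.28e-05), a smaller fall than with its own RNAi (difference -2.40, adjusted p = 4.31e-10). Higher with both knockdowns were 55 genes, 22.7% of those higher in Ythdc1 RNAi and 15.3% of those higher in Mettl3 RNAi, and lower with both were 29 (10.5% and 10.8%). Over all genes tested in both, 3.66% were called higher and 2.72% lower in Mettl3 RNAi. Called in the opposite direction in Mettl3 RNAi were 3 of the 242 higher genes and 8 of the 277 lower genes. fl(2)d was among the 3 (-0.21 in Mettl3 RNAi, adjusted p = 0.0143). Called or not, 182 of the 242 had a positive value in Mettl3 RNAi and 164 of the 277 a negative one, where 4906 of all 10054 genes were positive. ALiX (1.76, adjusted p = 1.81e-09), CG30424 (2.15, adjusted p = 1.28e-05), Cpr47Ef (1.68) and kek1 (0.25) were higher in Mettl3 RNAi HS brains, as was drk (0.22). The 2 knockdown effects differed for 169 of 10847 genes (1.56%). CG11313 (0.32 in Mettl3 RNAi, difference -8.23, adjusted p = 1.38e-06), CG42260 (-0.03, difference 1.31, adjusted p = 0.00177) and Obp99a (1.26, difference -4.37, adjusted p = 0.00176) were among them, and so were cad (difference 5.51, adjusted p = 0.00209), fl(2)d (difference 0.51, adjusted p = 0.000492) and tra2 (difference 0.59, adjusted p = 0.0101). For the Hsp70 copies the differences were 0.18 to 0.35, none called, which does not show that the 2 effects were alike. Their share of counts was 4.98 to 6.49% in Mettl3 RNAi and 5.41 to 6.95% in its control HS brains. These ranges pool replicates 1 to 3 with replicates 4 to 6, which had higher total counts. In replicates 1 to 3 the share was 4.976 to 4.997% in Mettl3 RNAi and 5.41 to 5.84% in control brains. In replicates 4 to 6 it was 6.23 to 6.49% and 6.55 to 6.95%. Within each set the share was thus lower in Mettl3 RNAi without overlap, which was not tested. The main fits held no term for the sets. Each knockdown had its own matched controls. What else set the experiments apart therefore cannot be told apart from the knockdown in the differences between the 2 knockdown effects. In the paper both control groups carried DaGal4 and mCherry RNAi. For changes shared by the 2 knockdowns, the knockdowns and a trait of that control line cannot be told apart.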

How the data were processed

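The deposited file holds counts of reads per gene, which the authors made with Trim Galore, STAR 2.7.3a against dm6 and summarizeOverlaps over FlyBase exons, from paired-end stranded mRNA libraries. Depth is given as total counts per library. Genes were kept with filterByExpr (minimum count 10, minimum total 15), scaled by TMM and tested with edgeR 4.0.16 in R 4.3.3 (glmQLFit and glmQLFTest, two-sided, Benjamini-Hochberg over all genes tested); DESeq2 1.42.0 was an alternative. SE is the log2 fold change divided by the square root of F. The tests were checked on simulated counts, where DESeq2 made more false calls than edgeR; the limit on false calls in that check was set looser for DESeq2 after this was seen. Positions come from an Ensembl Release 6 annotation, matched for 16847 of 17562 symbols. The m6A list was made with edgeR from deposited head counts, with the RNA pool as block. Control libraries 7 to 9 are those the labels match to Ythdc RNAi. Members and lists were chosen with earlier results of these data known. Named genes were Ythdc1; of called genes whose mean count reached 100 in 1 group, the 12 that rose most and the 12 that fell most, without overlap of the groups; up to 4 called members of each list, or the 2 most expressed; all Hsp70 copies; and up to 4 genes in each direction for the difference between HS and basal. Other genes are named beside their list and were chosen after their values were seen.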

Additional observations from a re-analysis of the deposited data

Results flagged for a closer look

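The effect of Ythdc1 RNAi after HS differed from its effect in basal brains, by the test of that difference over the 12 libraries, for 10 of the named genes. The HS effect was higher for Hr38 (3.31 on the log2 scale), CG5966 (2.78), CG34134 (2.02) and Cpr72Ec (1.57). It was lower for Hsp70Bbb (-3.86), lncRNA:alphagamma-element:CR32865 (-3.56), Hsp70Ab (-3.52), Hsp70Aa (-3.39), Hsp70Bc (-3.002) and Hsp70Ba (-2.78). The Hsp70 copies share sequence and are not independent results.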

How the results depend on the processing

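The number of genes called after HS, 543, depended on the analysis. It was 983 with DESeq2 (620 lower), which made more false calls than edgeR on simulated counts, 164 with 1 fit of all 12 libraries (69 higher, 95 lower) and 71 with control HS replicates 1 to 9 (44 higher, 27 lower). Leaving out 1 library gave 94 to 375 (50 to 167 higher, 44 to 243 lower). The fit with a replicate block, pairing control 7, 8 and 9 with 1, 2 and 3, gave 56 (27 higher, 29 lower). The numbers did not pair the samples: residuals of same-numbered HS libraries correlated at -0.13, -0.08 and 0.10. In basal brains 402 became 1236 with DESeq2, 1731 with the 12-library fit, 175 with the block and 29 to 1578 without 1 library, the last without control basal replicate 8. The 32 differences between treatments became 302 with DESeq2, 20 with a block and 17 to 91 without 1 library; leaving out control basal replicate 8 and Ythdc1 basal replicate 2 together, an alternative chosen after seeing the data, gave 78 (561 in basal brains). Hsp70 copies called among them numbered 4 to 6. Without a scaling factor the median of all genes in this test moved to -0.12. Mettl3 RNAi calls went from 635 to 981 with DESeq2 and 1171 with the block (same-numbered residuals correlated at 0.04 to 0.30), and the 169 differences between knockdowns to 428 with DESeq2. Their split of 70 higher and 99 lower became 33 and 170 without a scaling factor. The chaperone share differed by 0.36 percentage points without mitochondrial transcripts and by 0.059 with them. Over single genes and alternatives 4 of 1416 values were counted as reversed, all with control HS replicates 1 to 9: CG11852 (-0.32), kek1 (-0.94), heph (-0.70) and Prosbeta2 (0.11). A change of sign was not counted where the gene was called neither in the main fit nor in the alternative. With 3 libraries a group, small changes of genes with few counts could not be detected. The cause of these changes was not tested.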
